A study of Homo sapiens with 6 samples.

Results

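The regulators described here are 10 genes that set or mark the state of epithelial cells along the epithelial to mesenchymal transition (EMT), found by symbol among the 36651 genes of an expression table from HCT116 cells, each with 1 row. They comprise the EMT-driving repressors ZEB1, SNAI1 and SNAI2, the epithelial transcription factors OVOL1, OVOL2, GRHL2 and ELF3, the epithelial splicing regulators ESRP1 and ESRP2, and VIM, the gene of the mesenchymal filament protein vimentin. HCT116 is a human colorectal carcinoma line of epithelial morphology. Polyadenylated RNA was sequenced from 3 libraries labelled siMTA1, in which the chromatin regulator MTA1 was targeted, and from 3 control libraries of the same line. The titles of the siMTA1 samples read CrMTA1 and those of the controls read WT, and the labels do not settle whether a short interfering RNA or a stable change of the line was used, nor whether 1 clone was taken. Neither the control agent nor whether replicates were separate cultures is stated, so p-values measure the spread between these libraries, which may be technical.

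In epithelial cells, ZEB and SNAI proteins are zinc finger repressors that bind E-box sequences and silence genes of cell adhesion such as CDH1. Grainyhead and OVOL proteins hold the epithelial program and repress ZEB1, and ESRP proteins select the epithelial splice forms of receptors and adhesion proteins. MTA1 is a subunit of the NuRD chromatin complex and is known as a promoter of EMT in carcinoma cells.

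Where MTA1 RNA was lowered, OVOL1 rose by 35.5% and GRHL2 fell by 15.7%. These 2 were the members called changed among the 6 with enough signal to be tested, beside 18.2% of all tested genes. The OVOL1 call was kept under all 17 alternatives that tested it, whereas that of GRHL2 ended under 12 of 18, among them the loss of any 1 library. SNAI2, below that level, had a mean FPKM 1.76 times that of control cells and was called in a second fit that admitted low genes, a call kept in 1 of 6 fits with a library left out. The splicing regulator ESRP1 and the factor ELF3 were 8.99% and 8.63% higher without passing the test. ZEB1, VIM and OVOL2 were under 0.5 FPKM (fragments scaled to gene length and library size) in each of the 6 libraries.

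MTA1 itself was at 44.55, 43.98 and 47.97 FPKM in siMTA1 libraries 1, 2 and 3, against 65.90, 67.61 and 66.74 FPKM in control libraries 1, 2 and 3. Its mean was thus 68.2% of control (log2 fold change −0.54, SE 0.06, limma adjusted p = 0.000376), so the comparison is one of partly lowered MTA1 RNA. The level of MTA1 protein is not known from these data. Pearson's r across genes, which are not independent replicates, was 0.988 to 0.992 between siMTA1 and control libraries and 0.994 to 0.997 within a group. The steps between low values imply a depth of 57100000 to 66800000 counted units in siMTA1 libraries and 42900000 to 65000000 in control libraries. Whether these units are reads or fragments is not known, and they are called fragments below. Of 10 colon epithelial markers, 6 had a mean of at least 1 FPKM, led by KRT19, KRT8, KRT18 and EPCAM, whereas CDX1, VIL1, CDH17 and LGALS4 were at or near 0. Of these, KRT8 and KRT18 were lower in siMTA1 libraries (limma adjusted p = 0.0148 and 0.0336). The markers of that list summed to between 5627 and 6270 FPKM in siMTA1 libraries and between 6531 and 6846 FPKM in control libraries. Fibroblast markers summed to between 10.4 and 11.05 FPKM in siMTA1 libraries and between 12.1 and 12.8 FPKM in control libraries, nearly all of it from ACTA2 and COL1A1, while DCN, PDGFRA and THY1 were listed at 0 in all 6. All 8 leukocyte markers in the table had means under 1 FPKM, and EGFL7 and ESAM were the endothelial markers above it.

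Of the 10 regulators, 3 had a 5′ flanking sequence among the RefSeq promoter windows for GRCh38.p14, namely ELF3, VIM and ZEB1. The windows of ELF3 and VIM are shown because these genes, an epithelial factor and the mesenchymal marker, stood far apart in level, near 19 and 0.3 FPKM. Each runs 5′ to 3′ over the 250 bases before the start annotated by RefSeq on the plus strand, ELF3 at chr1:202010337-202010586 and VIM at chr10:17227991-17228240. The RefSeq start of ELF3 differs from that in GENCODE 29, where the gene begins at 202007945, so this window lies inside the gene as GENCODE 29 draws it. Capitals mark the E-box CAGGTG, which ZEB and SNAI proteins are known to bind, read on either strand (CACCTG is the same site on the other strand).
ELF3: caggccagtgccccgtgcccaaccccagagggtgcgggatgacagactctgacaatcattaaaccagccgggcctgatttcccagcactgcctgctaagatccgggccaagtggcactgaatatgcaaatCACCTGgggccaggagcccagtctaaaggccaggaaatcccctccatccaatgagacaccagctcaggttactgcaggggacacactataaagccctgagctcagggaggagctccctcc
VIM: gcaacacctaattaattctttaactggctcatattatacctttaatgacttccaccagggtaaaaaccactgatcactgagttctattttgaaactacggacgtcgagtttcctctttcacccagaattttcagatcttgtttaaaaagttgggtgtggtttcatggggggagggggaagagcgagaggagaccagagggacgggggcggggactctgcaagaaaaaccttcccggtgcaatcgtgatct
The ELF3 window held 1 such E-box, starting 120 bases before the RefSeq start, and the VIM window held 0. ZEB1 has 7 windows, of which 2 held the E-box. The same letters occur in 17.5% of all 35116 windows, so their presence is a description and does not show binding, which was not tested. Neither the OVOL core CCGTTA, found in 2.45% of all windows, nor the grainyhead core AACNGGTT, found in 1.49%, was present in the ELF3 or VIM window, searched on both strands, while 1 ZEB1 window held CCGTTA.

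By level, the 10 regulators spanned more than 2 orders of magnitude in FPKM, a scale that corrects for gene length. The order of means over the 6 libraries was ESRP1 (39.2 FPKM), ELF3 (19.1), ESRP2 (8.33), GRHL2 (5.35), OVOL1 (4.07), SNAI1 (1.92), SNAI2 (0.768), ZEB1 (0.373), VIM (0.258) and OVOL2 (0.153). ESRP1 lay above 88.8% of the 12141 genes whose mean reached 1 FPKM, ELF3 above 77.7% and SNAI1 above 14.9%. Neighbours in this order were separated in both groups down to ZEB1, except that GRHL2 and OVOL1 overlapped in the siMTA1 libraries. ZEB1 and VIM overlapped in the siMTA1 libraries, and VIM and OVOL2 in the control libraries.

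**Figure D1:**
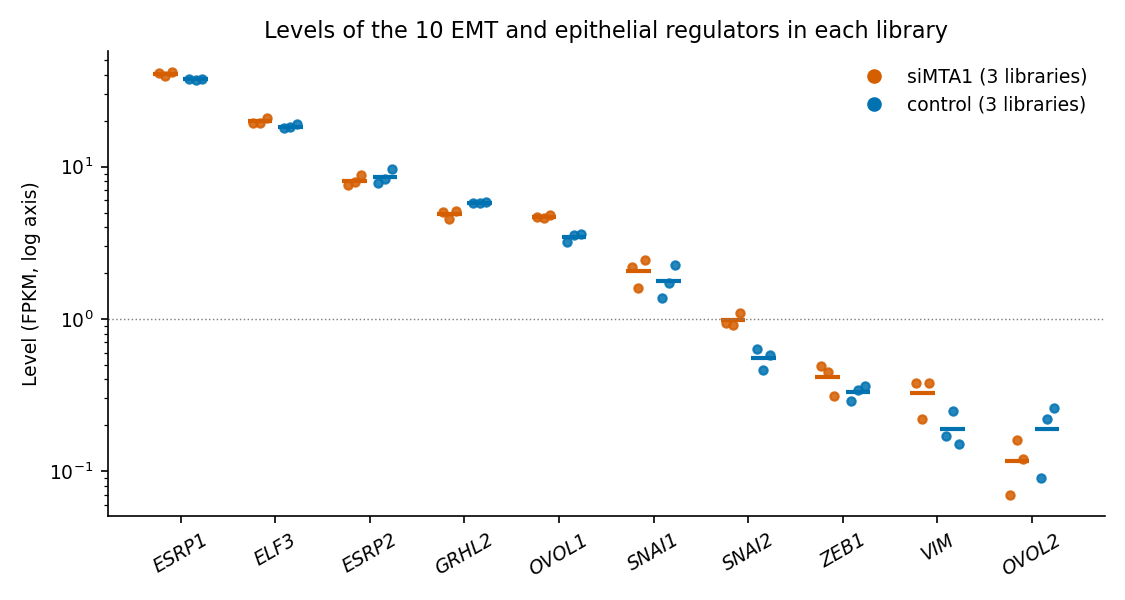
FPKM of each regulator on a log axis, with 1 point for each of 3 siMTA1 libraries (left, orange) and 3 control libraries (right, blue), and a bar at each mean. ESRP1, ELF3, OVOL1 and SNAI2 are higher and GRHL2 is lower in all 3 siMTA1 libraries than in any control library. Groups did not overlap in 39.1% of genes in the main fit and 32% in the fit that admitted low genes. The dotted line marks the mean of 1 FPKM needed for the main test.

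The comparison asks which of these genes differ where MTA1 RNA is lowered. The 6 members with a mean of at least 1 FPKM were ESRP1, ELF3, ESRP2, GRHL2, OVOL1 and SNAI1. They were read from a limma fit of log2(FPKM + 1) over 12141 genes, with adjusted p under 0.05 as the threshold. Log2 fold changes throughout are differences on that scale, which understates changes of low genes. Of these 6 members, 1 rose and 1 fell, beside 18.2% of all tested genes called, 6.13% higher and 12.1% lower. The groups did not overlap in 4 of these 6, of which 3 were higher and 1 lower, beside 39.1% of all tested genes, 13.2% higher and 25.9% lower. Nothing is read from 2 of 6 against such a background. The median log2 fold change over all tested genes was −0.05, and it ran from −0.06 to 0.01 over the scalings and other settings tried on these genes.

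Among the repressors, SNAI1, the zinc finger factor Snail, was at 2.18, 1.59 and 2.42 FPKM in siMTA1 libraries and at 1.37, 1.72 and 2.26 FPKM in control libraries. The groups overlapped, and the means were 2.06 ± 0.43 and 1.78 ± 0.45 FPKM (SD, n = 3 each, siMTA1 first). The log2 fold change of 0.14 (95% interval −0.15 to 0.43, limma adjusted p = 0.473) leaves both a small fall and a rise of up to 1.35-fold on the FPKM + 1 scale possible.

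SNAI2, or Slug, which represses CDH1 as Snail does, was at 0.94, 0.91 and 1.09 FPKM in siMTA1 libraries, against 0.63, 0.46 and 0.58 FPKM in control libraries. Each siMTA1 value lay above each control value, which was so for SNAI2 alone of the 4 low members. The means were 0.98 ± 0.10 and 0.557 ± 0.087 FPKM (SD, n = 3 each, siMTA1 first), and with the implied depth these values correspond to about 182 to 226 fragments in siMTA1 libraries and 88 to 128 in control libraries. Because its mean was under 1 FPKM, SNAI2 was read from a fit over the 18287 genes averaging 0.1 FPKM or more, in which 9.61% of genes were called, 3.52% higher and 6.1% lower, and in which groups did not overlap in 32% of genes, 11.8% higher and 20.2% lower. There it rose (log2 fold change 0.35, SE 0.07, limma adjusted p = 0.0238), and the exact two-sided permutation p was 0.1, which 3 against 3 libraries cannot go below. The call held without control library 1 (adjusted p = 0.0409) and ended on leaving out any other library (0.0561 to 0.0878) or without any filter (0.0929). SNAI2 (ENSG00000019549.8) lies at chr8:48917604-48921740, minus strand.

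ZEB1, the E-box binding homeobox repressor, was at 0.49, 0.45 and 0.31 FPKM in siMTA1 libraries and at 0.29, 0.34 and 0.36 FPKM in control libraries. One siMTA1 library, the third, lay inside the control range, and the difference did not pass (log2 fold change 0.09, SE 0.07, limma adjusted p = 0.464 in the fit that admitted low genes). The related factors ZEB2 and TWIST2 had no library above 0.01 FPKM. ZEB1 shares 366 exon bases with its antisense gene ZEB1-AS1, which stood at 0.98 to 1.23 FPKM in siMTA1 libraries and 0.91 to 0.95 FPKM in control libraries, and no source used here says whether fragments were counted by strand.

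VIM was close to the floor of the table. It was at 0.38, 0.22 and 0.38 FPKM in siMTA1 libraries and at 0.17, 0.25 and 0.15 FPKM in control libraries, or about 76 to 120 and 38 to 73 fragments. Control library 2 exceeded siMTA1 library 2, so the groups overlapped although the ratio of means was 1.72 (log2 fold change 0.16, SE 0.07, limma adjusted p = 0.221 in the same fit, exact permutation p = 0.2). VIM-AS1, on the opposite strand with 641 shared exon bases, was at 0.11, 0.12 and 0.02 FPKM in siMTA1 libraries and 0.03, 0.04 and 0.02 FPKM in control libraries. Its part in the VIM values was not tested.

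Among the epithelial factors, OVOL1 was at 4.65, 4.60 and 4.81 FPKM in siMTA1 libraries, against 3.21, 3.56 and 3.61 FPKM in control libraries. OVOL1 is a zinc finger repressor known to oppose ZEB1 and the mesenchymal state. The groups were well apart, with means of 4.69 ± 0.11 and 3.46 ± 0.22 FPKM (SD, n = 3 each, siMTA1 first). The log2 fold change was 0.35 (SE 0.06, 95% interval 0.21 to 0.49, limma adjusted p = 0.00643). The call was kept without any 1 library (adjusted p between 0.0123 and 0.0246) and under all scalings tried (0.00317 to 0.00474). OVOL1 (ENSG00000172818.9) spans chr11:65787022-65797219, plus strand, in the GENCODE 29 annotation of GRCh38, as for the other genes here. The antisense gene AP001266.1, which shares 1044 exon bases with it, did not exceed 0.1 FPKM.

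OVOL2, its paralog, was near the floor of the table. It was at 0.07, 0.16 and 0.12 FPKM in siMTA1 libraries and at 0.09, 0.22 and 0.26 FPKM in control libraries, which amounts to about 9 to 23 and 8 to 37 fragments. The groups overlapped and the difference did not pass (log2 fold change −0.09, SE 0.08, limma adjusted p = 0.490 in the fit that admitted low genes). OVOL2 shares 59 exon bases on the same strand with SNX5, which was at 45.34 to 49.11 FPKM in siMTA1 libraries and 47.44 to 52.91 FPKM in control libraries, and the part of SNX5 fragments in the OVOL2 values was not tested. The highest OVOL2 library, at 0.26 FPKM, was far below the lowest of OVOL1, at 3.21 FPKM.

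GRHL2, a grainyhead factor that binds enhancers of epithelial genes, was at 5.06, 4.55 and 5.08 FPKM in siMTA1 libraries, against 5.79, 5.81 and 5.82 FPKM in control libraries. The control values lay within 0.03 FPKM of each other, and each siMTA1 value was lower. The means were 4.90 ± 0.30 and 5.81 ± 0.015 FPKM (SD, n = 3 each, siMTA1 first; log2 fold change −0.21, SE 0.06, limma adjusted p = 0.0415). GRHL2 (ENSG00000083307.10) spans chr8:101492432-101669726, plus strand. Its call was close to the threshold. It ended on leaving out any 1 library (adjusted p 0.0581 to 0.131), in the fits that admitted genes of 0.1 FPKM (0.0627) or had no filter (0.106), and under TPM (0.0512), upper-quartile scaling (0.0792), quantile normalization (0.0904) and median centring (0.102), while the direction was kept in each.

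Both paralogs of GRHL2 were higher. GRHL1 was at 5.00, 4.74 and 5.05 FPKM in siMTA1 libraries and at 3.78, 3.74 and 3.54 FPKM in control libraries (log2 fold change 0.34, SE 0.06, limma adjusted p = 0.00600), a call kept without any 1 library. GRHL3 was at 0.53, 0.48 and 0.66 FPKM in siMTA1 libraries and at 0.15, 0.14 and 0.14 FPKM in control libraries, 3.88-fold higher as a ratio of means. On the FPKM + 1 scale its log2 fold change was 0.44 (limma adjusted p = 0.00829 in the fit that admitted low genes). The 2 paralogs were singled out with their values known. Within a library, the ratio of GRHL1 to GRHL2 was 0.988, 1.04 and 0.994 in siMTA1 libraries and 0.653, 0.644 and 0.608 in control libraries, given as a description since GRHL1 was picked with its values known.

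ELF3, an ETS factor of epithelia, was at 19.31, 19.49 and 21.00 FPKM in siMTA1 libraries and at 17.82, 18.17 and 19.06 FPKM in control libraries. The groups were adjacent without overlapping, and the difference did not pass (log2 fold change 0.11, 95% interval −0.02 to 0.24, limma adjusted p = 0.197). EHF, another ETS factor of epithelia, fell in the same cells and was at 20.84, 20.39 and 21.49 FPKM in siMTA1 libraries, against 40.07, 37.63 and 37.29 FPKM in control libraries. EHF was picked with its values known, so the ratio of ELF3 to EHF, 0.953 ± 0.025 in siMTA1 libraries and 0.480 ± 0.033 in control libraries (SD, n = 3 each), is a description that carries the fall of EHF. ELF3 shares 664 exon bases with ELF3-AS1, which was at 1.07 to 1.32 FPKM in siMTA1 libraries and 0.93 to 1.28 FPKM in control libraries. AL691482.3, on the same strand as ELF3, also shares 664 exon bases with it. That gene was at 0.57 to 0.62 FPKM in siMTA1 libraries and 0.37 to 0.47 FPKM in control libraries. The part of either gene in the ELF3 values was not tested.

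Neither of the splicing regulators passed the test. ESRP1 was at 41.11, 39.54 and 41.95 FPKM in siMTA1 libraries and at 37.85, 36.85 and 37.79 FPKM in control libraries. All 3 siMTA1 values were above all control values, but the difference was small and did not pass (log2 fold change 0.12, 95% interval 0.00 to 0.24 unadjusted, limma adjusted p = 0.132). It passed with array weights (adjusted p = 0.0304) and under median centring (0.0452), the 2 of 18 alternatives that called it.

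ESRP2 was at 7.57, 7.89 and 8.78 FPKM in siMTA1 libraries and at 7.83, 8.27 and 9.66 FPKM in control libraries, with overlapping groups (log2 fold change −0.08, 95% interval −0.26 to 0.11, limma adjusted p = 0.544). On the FPKM + 1 scale that interval runs from 0.835-fold to 1.08-fold. ESRP2 shares 149 exon bases with NFATC3, on the opposite strand. NFATC3 was at 2.27 to 2.54 FPKM in siMTA1 libraries and 2.94 to 3.19 FPKM in control libraries, and its part in the ESRP2 values was not tested. The ratio of ESRP1 to ESRP2 was 5.07 ± 0.33 in siMTA1 libraries and 4.40 ± 0.46 in control libraries (SD, n = 3 each, exact permutation p = 0.2), with overlap.

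**Figure D2:**
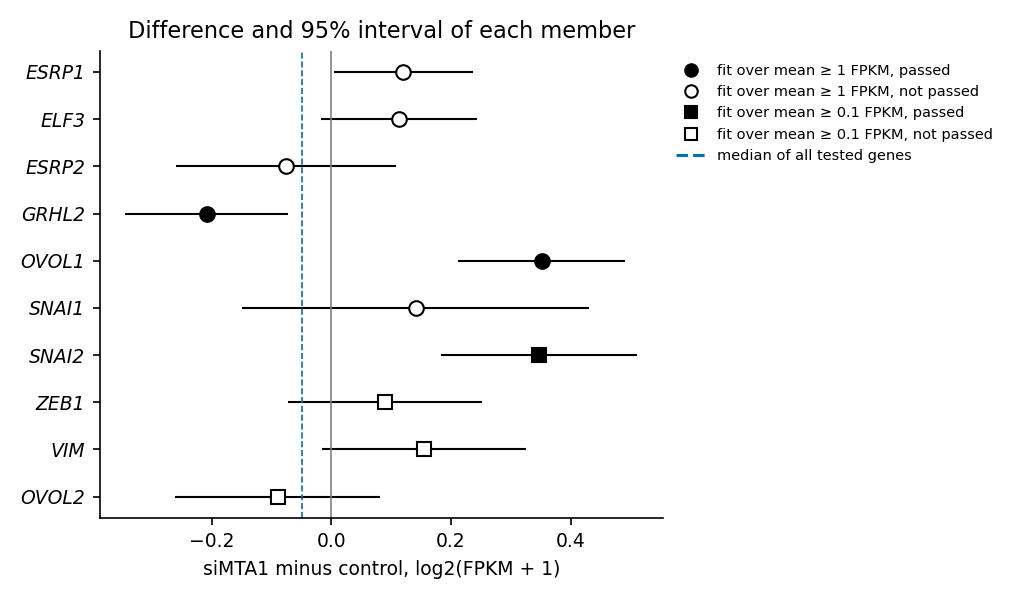
Difference in log2(FPKM + 1), siMTA1 minus control, with its 95% interval (unadjusted) for each regulator in order of level, circles from the main fit and squares from the fit that admitted low genes, filled where adjusted p was under 0.05. OVOL1 (0.35), SNAI2 (0.35) and GRHL2 (−0.21) are filled, and the dashed line marks the median of all tested genes (−0.05).

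**Figure D3:**
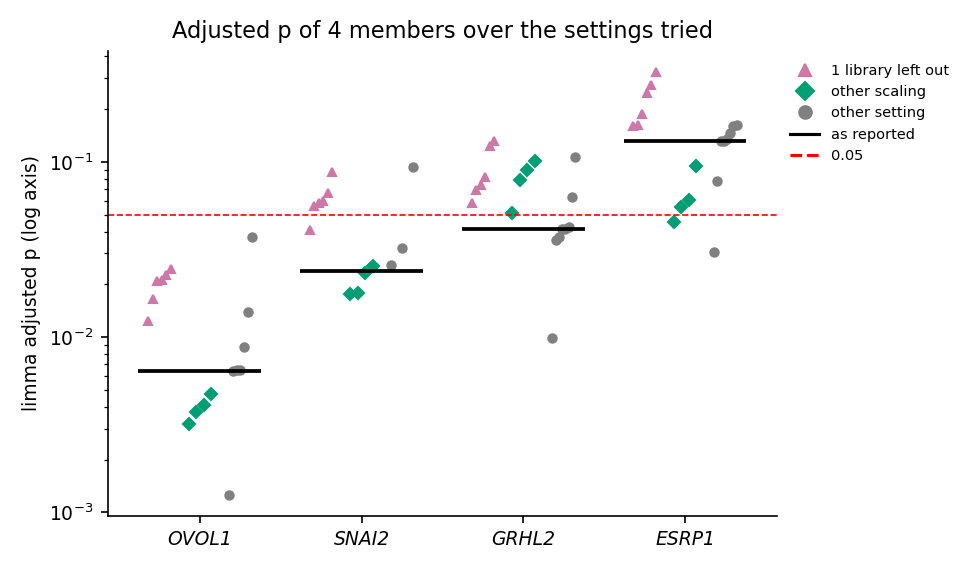
limma adjusted p (log axis) of OVOL1, SNAI2, GRHL2 and ESRP1 under each alternative, with a black bar at the reported value and a dashed line at 0.05. All points of OVOL1 lie below the line, whereas those of SNAI2 and GRHL2 with 1 library left out lie mostly or wholly above it.

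Profiles closest to each called member were sought among all tested genes by the Euclidean distance between centred log2(FPKM + 1) values over the 6 libraries. For OVOL1 these were PLEK2 (distance 0.049), NOTUM (0.063) and USP11 (0.064), beside a median distance of 0.542 over all genes. PLEK2, a pleckstrin, was at 51.5 ± 1.97 FPKM in siMTA1 libraries and 39.65 ± 2.16 FPKM in control libraries (SD, n = 3 each). For GRHL2 they were CYSTM1 (0.047), CNOT11 (0.051) and NFYC (0.052), beside a median of 0.312. With 6 values per gene and 12141 genes, close matches of this kind occur without any link between the genes.

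Related genes were read from 7 lists, chosen with earlier results of these data known, so their shares are a description. Of 82 distinct genes tested, 12 were higher and 7 lower, or 23.2%, beside 18.2% of all tested genes. Under the 4 other scalings tried, 15 to 19 were higher and 4 or 5 lower. Their median log2 fold change was 0.00, against −0.05 over all tested genes. Among other EMT-inducing factors, 1 of 5 tested was higher and 0 lower, with a median of −0.01. That gene was SOX4, at 28.02 ± 0.55 FPKM in siMTA1 libraries and 16.9 ± 0.28 FPKM in control libraries (log2 fold change 0.70, limma adjusted p = 5.03e-05). TWIST1, a basic helix-loop-helix driver, was at 3.16 ± 0.46 and 3.29 ± 0.65 FPKM and did not pass (adjusted p = 0.847). FOXQ1, just under the filter and read from the fit that admitted low genes, fell to 0.643 ± 0.075 FPKM in siMTA1 libraries, against 1.31 ± 0.16 FPKM in control libraries (adjusted p = 0.00851).

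Other epithelial factors moved in both directions, with 3 of 10 higher (KLF4, KLF5 and GRHL1), 1 lower (EHF) and a median of 0.09. KLF4, a factor of differentiated gut epithelium, was at 15.7 ± 0.52 FPKM in siMTA1 libraries and 11.07 ± 0.45 FPKM in control libraries, and KLF5, of proliferating crypt cells, at 23.04 ± 1.48 and 16.8 ± 0.54 FPKM. EHF had the smallest adjusted p of the 82 genes (log2 fold change −0.84, SE 0.06, limma adjusted p = 2.76e-05). The calls of SOX4, EHF, KLF4, KLF5 and GRHL1 were kept under every alternative in which they were tested.

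Epithelial genes that ZEB and SNAI factors repress or that GRHL2 and OVOL factors hold went both ways, with 2 of 21 higher, 2 lower and a median of 0.00. The adhesion genes CDH1, at 34.6 ± 0.80 FPKM in siMTA1 libraries and 28.6 ± 0.58 FPKM in control libraries, and DSP, at 46.4 ± 1.50 and 40.1 ± 0.93 FPKM, were the higher ones. The claudin gene CLDN3, at 16.1 ± 1.56 and 19.4 ± 1.05 FPKM, and MAL2, at 49.4 ± 5.00 and 59.5 ± 4.38 FPKM, were the lower ones (all SD, n = 3, siMTA1 first). The CLDN3 and MAL2 calls ended under 12 and 13 of 18 alternatives, that of DSP under 6 and that of CDH1 under 0.

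Of 19 listed mesenchymal genes, 8 were tested. Among these, 3 were higher and 1 lower, beside 6.13% and 12.1% of all tested genes. Their median log2 fold change was 0.21, against −0.05 over all tested genes. Among the higher ones, SPARC, which encodes a secreted matrix glycoprotein, was at 10.8 ± 0.20 and 5.92 ± 0.16 FPKM and FN1, or fibronectin, at 2.11 ± 0.21 and 1.16 ± 0.13 FPKM (SD, n = 3 each, siMTA1 first). ACTA2, smooth muscle actin, was the lower one at 8.19 ± 0.49 and 10.5 ± 0.35 FPKM. Untested genes of the list included CDH2, the gene of N-cadherin, COL1A2, COL3A1, TGFBI and THY1, none of which exceeded 0.02 FPKM in any library.

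Of 13 other splicing regulators of the EMT, 0 were higher and 2 lower, with a median of 0.05. The count of higher genes depended on the setting. Under the 4 other scalings tried, 2 to 4 were higher, and with array weights 5, with 2 lower in each. RBM47, an epithelial RNA-binding protein, was at 5.67 ± 0.50 FPKM in siMTA1 libraries and 8.96 ± 0.73 FPKM in control libraries (log2 fold change −0.58, limma adjusted p = 0.00168), and MBNL2 at 10.9 ± 0.75 and 14.3 ± 0.78 FPKM (−0.37, adjusted p = 0.00693). Among 14 genes whose transcripts ESRP proteins are known to splice, 13 did not pass the test and 0 were lower, with a median of −0.02. FGFR2, whose exon choice is the classic ESRP readout, was at 3.35 ± 0.22 and 3.41 ± 0.15 FPKM (adjusted p = 0.849). These are gene totals, and splice forms were not analysed here.

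Of 11 tested genes of TGF-beta signalling, which induces SNAI and ZEB factors, 2 were higher and 1 lower, with a median of −0.06. The inhibitors BAMBI, at 2.05 ± 0.17 and 1.20 ± 0.067 FPKM, and SMAD7, at 2.51 ± 0.19 and 1.61 ± 0.091 FPKM, were higher in siMTA1 libraries. SMAD3, a signal transducer, was lower at 41.9 ± 1.64 and 47.98 ± 1.60 FPKM (SD, n = 3 each, siMTA1 first), a call that ended under 11 of 18 alternatives.

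**Figure D4:**
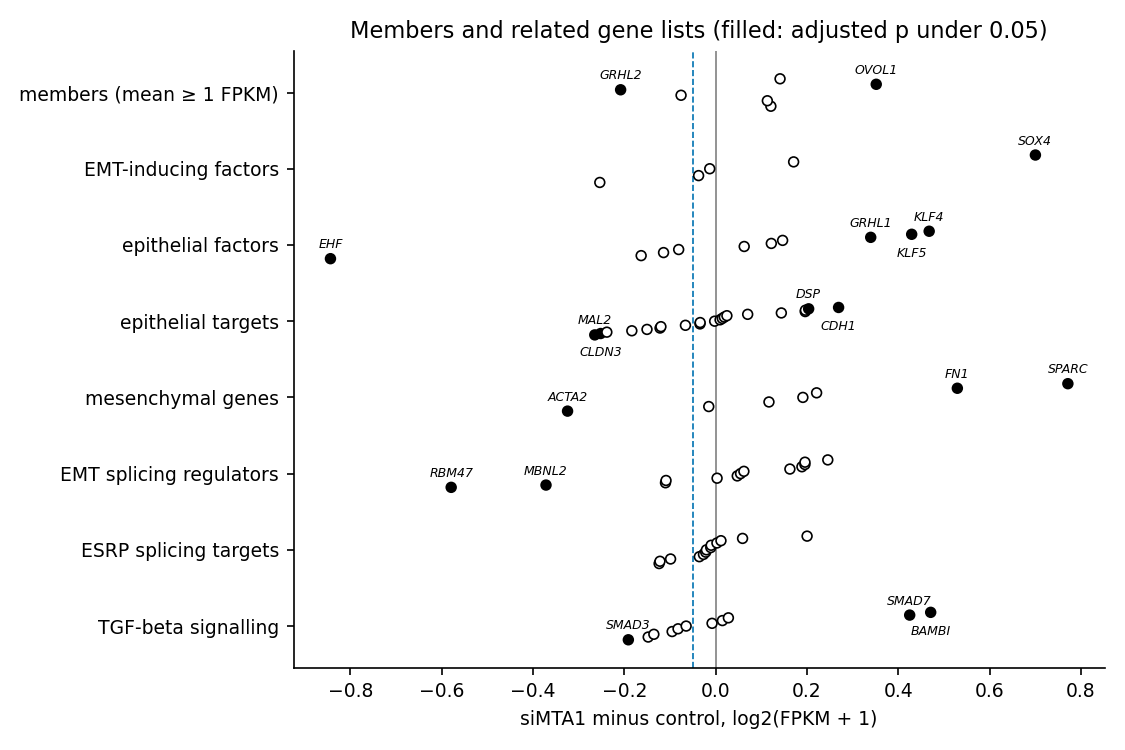
Difference in log2(FPKM + 1), siMTA1 minus control, of the 6 tested regulators and of the tested genes of 7 related lists, 1 point per gene reported, filled and named where adjusted p was under 0.05, with a dashed line at the median of all tested genes. EHF (−0.84) and SPARC (0.77) lie farthest out, and 4 of the 7 lists hold filled points on both sides of 0.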

How the data were processed

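RNA was measured in 6 libraries of HCT116 cells, 3 siMTA1 and 3 control, assigned to groups by the samples' descriptions and to columns by name. The authors deposited 1 table of FPKM for 36651 genes, printed to 2 decimals; cutadapt, TopHat2, edgeR and GRCh38 are named in the submitters' processing notes without versions or roles. The counter, annotation release and gene lengths used by the authors are unstated. The table held no counts, so no count test was run. Depth was inferred as the total at which low FPKM values of genes of 150 to 400 exon bases (GENCODE 29) became whole within 0.15 of a unit, which 99.3% to 99.9% did; member lengths are assumed to match that release. It gives counting precision only.

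Log2(FPKM + 1) values of genes whose mean reached 1 FPKM were fitted with limma 3.58.1 (R 4.3.3, empirical Bayes, intensity trend, two-sided, Benjamini-Hochberg over all genes), siMTA1 against control, no covariates. Because their means were under 1 FPKM, 4 members were read from a fit with a mean of at least 0.1 FPKM. Both fits used the same FPKM + 1 scale, which understates changes of low genes. The fit was tested on simulated data. Exact permutation tests used scipy 1.17.1. Named genes were all members, up to 3 called genes per list with the smallest adjusted p, and 3 nearest profiles; others were added after their values were seen. Of the related genes called, 2 are counted but not reported here. Members and lists were chosen with earlier results of these data known. Alternatives were other pseudocounts, filters, scalings and limma settings, a replicate block and each library left out.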

Additional observations from a re-analysis of the deposited data

How the results depend on the processing

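Of the 6 members tested, OVOL1 kept its call under all 17 alternatives that tested it, SNAI1 and ELF3 kept their side of the threshold under all of theirs, and GRHL2 lost its call under 12 of 18. ESRP2 reversed without control library 3 (log2 fold change 0.00295, adjusted p = 0.984) and ranged down to −0.133 (without control library 1) when 1 library was left out; the cause was not tested. The number of members called was 2 of 6, and 1 under TPM, upper-quartile scaling and quantile normalization. With a mean of at least 0.1 FPKM it was 2 of 10, OVOL1 and SNAI2, both higher, while GRHL2 did not pass. With no filter on low values it was 1 of 10. With a mean of at least 5 FPKM it was 1 of 4, where OVOL1 was not among the genes fitted. It was 3 of 6 with array weights (OVOL1 and ESRP1 higher, GRHL2 lower) and 2 of 6 under median centring, there OVOL1 and ESRP1. With each library left out in turn it was 1 to 1. Calls among the related genes numbered 19, and 36 with array weights. Over all genes 2207 of 12141 were called, and 4049 of 12141 with array weights. The 4 other scalings gave 1906 to 2062 of 12141. The 0.1 FPKM filter gave 1758 of 18287, the 5 FPKM filter 1675 of 7087, and no filter 676 of 33126. The member counts stand beside these shares, and nothing is read from them. Leaving out 1 library gave 1046 to 1780 called genes, lowest without control library 2 (1046) and siMTA1 library 2 (1068). Upper-quartile scaling gave 1000 higher and 939 lower genes, and median centring 1128 and 802, beside 744 and 1463. Alternatives chosen after seeing the data combined the 0.1 FPKM filter with other settings for the 4 low members; SNAI2 kept its call with a pseudocount of 0.1 and under the 4 scalings.

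Same-numbered libraries had deviations correlated at 0.331, 0.0219 and 0.219 for numbers 1, 2 and 3. Differently numbered siMTA1 and control libraries had values from −0.277 to 0.0712. Whether same-numbered libraries share a batch is not stated and was not tested. With the replicate number as a block, 3031 genes, 25 related genes and 2 members were called, and MTA1 kept its log2 fold change of −0.54 (adjusted p = 0.00144). OVOL2 and VIM had the fewest implied fragments of the members.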
